A study of Mus musculus with 3 samples.

Results

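The regulators and effectors of tendon described here are 8 genes: the transcription factor genes Mkx, Egr1 and Egr2, and the effector genes Tnmd, Thbs4, Cilp, C1qtnf3 and Htra3, whose products lie in the cell membrane or are secreted. The grouping is by assumed role in tendon, although the study takes C1qtnf3 as a marker of fascia. The open chromatin regions (OCRs) of each gene were found by position, as every called peak overlapping the gene body or the 2 kb upstream of it on mm10. This gave 42 merged regions, made of 36 of the 190443 peaks called at embryonic day (E) 12.5, 28 of the 102459 called at E14.5 and 40 of the 213613 called at E16.5. The 8 genes were read beside 15875 autosomal protein-coding genes with a peak in every library.

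Single-nucleus ATAC-seq, which counts where a transposase cuts accessible DNA, had been run on mesenchymal progenitors (MPs) sorted from mouse forelimbs, with 1 library per stage (E12.5, E14.5, E16.5). The embryos of all 3 groups were Hic1CreERT2/CreERT2;Rosa26LSLtdTomato/tdTomato on a C57BL/6J background, and every dam had received tamoxifen by gavage at E10, so each group carried both altered alleles and the drug, and no untreated or unrecombined control was available for comparison. The tdTomato-positive cells are the descendants of cells that used the Hic1 promoter around that time. Litters were pooled, male and female embryos were not separated, and antibodies to F4/80, Ter119, CD11b, CD31, CD45 and CD117 had been used to gate out blood and endothelial cells. At E16.5 the tissue was the segment around the elbow, at the earlier stages the whole forelimb, and the enzymes used to free the cells changed after E12.5. Stage, library and digestion cannot be told apart in the step from E12.5 to E14.5, nor stage, library, segment and software version in the step from E14.5 to E16.5, nor any of these over both steps, and no result below has a replicate error.

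In stage order the libraries held 8294, 20023 and 14048 nuclei, 87048167, 204289151 and 413425059 cut site counts, and a median of 6003.5, 8575 and 26694 counts per nucleus. The median share of a nucleus's counts that lay in promoter peaks was 40.7%, 54.1% and 40.4% in the same order, so the E14.5 library stood apart in this respect, and it also had the fewest peaks. Between 151 and 401 cell barcodes were shared by any pair of libraries. The start sites of the mesenchymal markers Prrx1, Pdgfra, Twist1, Tbx5 and Hic1 were open in every library. Of 16 markers of muscle, endothelium, blood and macrophages, and epithelium, 5 had an open start site in every library. These were the muscle stem cell gene Pax7, the endothelial gene Kdr, the macrophage gene Cd68 and the epithelial genes Epcam and Cdh1. Those of the leukocyte gene Ptprc and the macrophage gene Adgre1 had no peak in any library. Summed over each list in stage order, the start sites had 31.3, 8.08 and 15.0 CPM (counts per 1000000 counts in autosomal regions with a peak in every library) for muscle, 32.2, 40.0 and 34.5 CPM for endothelium, 42.7, 2.79 and 49.5 CPM for blood and macrophages, nearly all of it at Cd68, and 30.9, 34.2 and 34.4 CPM for epithelium. The part of such cells in the levels of the 8 genes was not tested, and Schwann cell markers are given with Egr2.

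Tendon cells arise from mesenchymal progenitors that switch on the transcription factor Scleraxis, and the homeobox factor Mohawk (Mkx) and the zinc finger factors Egr1 and Egr2 then act on collagen genes and other tendon genes. Egr1 and Egr2 are also immediate early genes, which respond quickly to growth factors and mechanical load, and Egr2 directs myelination in Schwann cells. Among the effector genes, Tnmd encodes tenomodulin, a transmembrane protein of mature tendon cells, Thbs4 encodes thrombospondin 4, a matrix protein at the junction of muscle and tendon, and Cilp encodes a matrix protein that binds TGF-beta. C1qtnf3 encodes CTRP3, a secreted protein of the C1q and TNF related family, and Htra3 encodes a secreted serine protease.

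The promoters of the effector genes and of Egr2 are shown because each was read as its own element in what follows. RefSeq (GRCm38.p6) start sites gave 250 bases before the start for 6 of the 8 genes, and those of Mkx and Egr1 were not analysed here. Each is written 5′ to 3′ on the gene's strand, with capitals at any match to CAGATG (a common E-box form), TATAAA, the CArG box bound by serum response factor, TGANTCA (the AP-1 form), GCGGGGGCG or GCGTGGGCG (the EGR forms), searched on both strands.
Tnmd (chrX:133850758-133851007, plus strand): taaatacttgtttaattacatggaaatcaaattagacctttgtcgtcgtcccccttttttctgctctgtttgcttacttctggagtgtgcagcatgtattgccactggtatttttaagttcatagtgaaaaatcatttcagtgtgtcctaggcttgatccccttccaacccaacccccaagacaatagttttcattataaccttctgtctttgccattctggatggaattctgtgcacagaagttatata
Thbs4 (chr13:92794819-92795068, minus strand): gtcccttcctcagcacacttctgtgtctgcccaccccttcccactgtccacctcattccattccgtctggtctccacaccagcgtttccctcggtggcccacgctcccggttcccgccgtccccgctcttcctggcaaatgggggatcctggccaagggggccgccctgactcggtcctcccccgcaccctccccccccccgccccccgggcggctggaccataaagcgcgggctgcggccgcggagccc
Cilp (chr9:65264930-65265179, plus strand): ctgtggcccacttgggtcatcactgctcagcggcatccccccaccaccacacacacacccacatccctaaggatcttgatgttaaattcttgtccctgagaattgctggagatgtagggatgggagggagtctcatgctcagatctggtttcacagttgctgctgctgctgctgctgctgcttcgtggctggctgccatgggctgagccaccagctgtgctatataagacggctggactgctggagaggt
C1qtnf3 (chr15:10952082-10952331, plus strand): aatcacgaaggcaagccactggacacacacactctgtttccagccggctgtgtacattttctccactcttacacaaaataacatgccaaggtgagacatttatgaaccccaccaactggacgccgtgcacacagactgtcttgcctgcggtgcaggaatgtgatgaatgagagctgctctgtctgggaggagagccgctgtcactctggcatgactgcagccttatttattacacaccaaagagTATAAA
Htra3 (chr5:35679781-35680030, minus strand): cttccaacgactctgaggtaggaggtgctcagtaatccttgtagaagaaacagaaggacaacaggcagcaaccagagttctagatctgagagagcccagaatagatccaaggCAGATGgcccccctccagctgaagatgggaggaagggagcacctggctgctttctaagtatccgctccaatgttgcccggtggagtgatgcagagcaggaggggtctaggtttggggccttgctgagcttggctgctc
Egr2, an upstream start (chr10:67537316-67537565, plus strand): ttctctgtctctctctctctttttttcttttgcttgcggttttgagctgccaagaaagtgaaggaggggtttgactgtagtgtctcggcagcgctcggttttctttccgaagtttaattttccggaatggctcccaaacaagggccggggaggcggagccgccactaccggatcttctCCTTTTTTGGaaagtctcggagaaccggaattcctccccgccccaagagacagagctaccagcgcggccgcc
Egr2, a downstream start (chr10:67537619-67537868, plus strand): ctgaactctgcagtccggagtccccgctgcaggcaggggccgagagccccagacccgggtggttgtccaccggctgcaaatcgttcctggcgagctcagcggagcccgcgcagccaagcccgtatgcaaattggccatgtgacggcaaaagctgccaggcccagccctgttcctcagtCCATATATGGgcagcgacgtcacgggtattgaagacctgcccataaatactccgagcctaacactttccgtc
The promoters differed in base composition. The Thbs4 window had 70.8% G and C and 19 CpG dinucleotides, the Tnmd window 38.4% and 2, Cilp 56% and 3, C1qtnf3 49.2% and 6, Htra3 54.8% and 3, and the 2 Egr2 windows 54% with 16 and 61.6% with 17. Over 32851 RefSeq promoter windows of this length the median was 52.4%, with 6 CpG dinucleotides and a middle range of 2 to 16. The 2 Egr2 windows were chosen for print as the first with a CArG box, so their matches were fixed in advance. Such a box was held by 4 of the 5 start windows listed for Egr2, which overlap in part, against 1.47% of all windows. The C1qtnf3 window ended in TATAAA, which 12.4% of windows hold, and the Htra3 window held CAGATG, which 14.4% hold. No window printed here matched TGANTCA, GCGGGGGCG or GCGTGGGCG, which 6.75%, 2.57% and 0.536% of all windows hold. A match describes letters and is not a measured binding site.

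The question put to the 3 stages was how accessible each locus was as MPs moved towards separate fates. Of the 8 loci, C1qtnf3 alone passed a 2-fold change between any pair of stages when its shared peaks were summed, and it did so upwards. Accessibility is given in CPM, with 95% exact Poisson intervals that cover counting error only. From E12.5 to E14.5, 0.901% of the background genes were 2-fold higher and 3.07% 2-fold lower, and 1 and 0 of the 8 were. From E14.5 to E16.5 the background was 3.43% and 0.75%, against 0 and 0 of the 8, and from E12.5 to E16.5 it was 2.87% and 3.08%, against 1 and 0. The median log2 ratio of the 8 was 0.01, 0.16 and 0.01 over these steps in that order. That of all genes was 0.15, −0.17 and 0.01, so scaling by the median gene shifts every single-step ratio by those amounts.

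Among the regulators, the log2 ratios of total accessibility ran from −0.22 to 0.09 over single steps, while per kb of called peak, which was shortest at E14.5, the steps were larger. At E12.5 Mkx had 93.4 CPM (90.4 to 96.6), against 95.3 CPM (93.5 to 97.3) at E14.5 and 90.9 CPM (89.5 to 92.3) by E16.5. The log2 ratio from E12.5 to E16.5 was −0.04 (−0.09 to 0.01), and 44.6% of autosomal genes had a lower ratio. Its sign held in 8 of 12 alternative settings, so no direction is given. Alternatives overlap in the peaks they use, so tallies of them here and below are not independent checks. The alternative without peaks of other protein-coding genes repeats the reported value for every member by construction. Per kb the first step was 0.34 and the second −0.55.

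Egr1 had 126, 134 and 142 CPM in stage order, and its intervals did not overlap between stages. The step from E12.5 to E16.5 was 0.16 on the log2 scale (0.12 to 0.21), and 67.6% of autosomal genes had a lower one. The sign turned in 2 of 9 alternatives, the count of nuclei with any cut site, where it was −0.29, and the count per kb of called peak, where it was −0.12. Per kb the single steps were 0.92 and −1.05, the second a fall past 2-fold that total signal did not show. Egr2 had 73.5, 77.3 and 66.4 CPM, lowest in the last library. Its log2 ratio from E12.5 to E16.5 was −0.15 (−0.21 to −0.08), and the sign held in 7 of 9 alternatives. Per kb the single steps were 0.74 and −0.66. The 4 Schwann cell markers with shared peaks had log2 ratios over the same interval from −0.84 for Sox10 to 0.93 for Foxd3 and a median of 0.09. The start site of Sox10, the defining factor of that lineage, had 11.2, 5.08 and 4.49 CPM. The part of Schwann cells in the level of Egr2 was not tested.

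The effectors were spread more widely. At E12.5 C1qtnf3 had 7.12 CPM (6.30 to 8.02), against 22.0 CPM (21.15 to 22.97) at E14.5 and 41.3 CPM (40.4 to 42.3) by E16.5. Its levels rose at each step, with no overlap between stages. The log2 ratio was 1.63 (1.45 to 1.82) over the first step, 0.91 (0.84 to 0.98) over the second and 2.54 (2.36 to 2.72) from E12.5 to E16.5, where 99.7% of autosomal genes had a lower ratio. The sign was positive in 12 of 12 alternatives at each step, while per kb of called peak the steps were 0.99, which is under 2-fold, and 0.20. The size from E12.5 to E16.5 ranged from 1.18 per kb of called peak to 5.07 in the peak away from the start.

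At E12.5 Cilp had 11.3 CPM (10.3 to 12.4), against 11.3 CPM (10.6 to 11.9) at E14.5 and 15.2 CPM (14.6 to 15.8) by E16.5. In total signal the first pair overlapped and E16.5 lay above both. Per kb of called width Cilp had 4.47, 7.09 and 5.42 CPM per kb in stage order, highest at E14.5. The step from E14.5 to E16.5 kept its sign in 8 of 12 alternatives, so no direction is given for it. The log2 ratio from E12.5 to E16.5 was 0.43 (0.28 to 0.58), above that of 87.6% of autosomal genes. It was above 0 in 12 of 12 alternatives, of which some repeat the same value. In the single intron peak of matched position it was 0.02.

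Tnmd is X-linked. It had 11.2 CPM (10.2 to 12.3) in the E12.5 library, against 6.02 CPM (5.58 to 6.48) at E14.5 and 8.02 CPM (7.603 to 8.449) by E16.5. It was lowest at E14.5 in total signal, with no overlap between stages. The log2 ratio from E12.5 to E14.5 was −0.90 (−1.08 to −0.72), and 3.81% of autosomal genes had a lower ratio. It was −0.97 when scaled by counts on the X chromosome, and below 0 in 13 of 13 alternatives, of which the count per kb gave −0.13. The step from E14.5 to E16.5 was 0.41 (0.28 to 0.55), or 1.05 when every peak each library called in reach was counted. Per kb of called width this step turned to −0.45, with 6.08 CPM per kb at E14.5 and 4.44 CPM per kb at E16.5, so no direction is given for it.

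Thbs4 had 53.4, 43.5 and 45.8 CPM in stage order. In total signal the later libraries lay below the first, and over both steps the log2 ratio was −0.22 (−0.29 to −0.15), while the start site peak alone gave 0.18. Per kb of called width Thbs4 had 6.19, 7.73 and 5.01 CPM per kb, highest at E14.5. Htra3 had 52.7, 45.9 and 54.7 CPM. It was lowest at E14.5 in total signal. Per kb of called width Htra3 had 10.0, 10.6 and 8.39 CPM per kb, highest at E14.5. The end points of total signal differed by 0.05 (−0.02 to 0.13), which is within counting error.

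**Figure D1:**
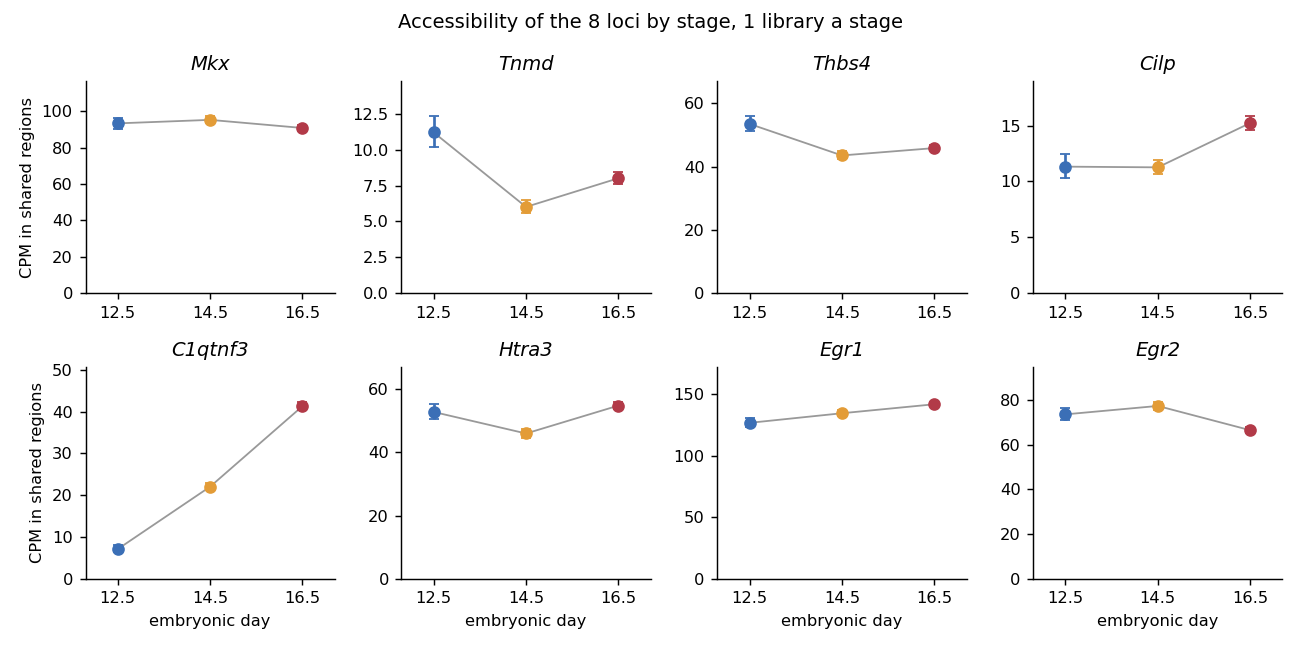
Accessibility of each of the 8 genes (CPM) by stage, 1 point per library with its 95% exact Poisson interval. C1qtnf3 climbs from 7.12 to 41.3 CPM, and the other 7 genes stay within a 2-fold range.

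Levels of different genes can be compared only per length of called peak, and called peaks were shortest at E14.5 for 7 of the 8 genes, C1qtnf3 being shortest at E12.5. Per kb of called width, Egr1 was highest at every stage, with 16.1, 30.4 and 14.7 CPM per kb in stage order. C1qtnf3 was the lowest at E12.5, with 4.13 CPM per kb. By E16.5 it had 9.39 CPM per kb, and of the 8 genes Egr1 and Egr2 (11.2 CPM per kb) lay above it. At E16.5 Tnmd was lowest, with 4.44 CPM per kb, followed by Thbs4 with 5.01, Cilp with 5.42, Mkx with 6.60 and Htra3 with 8.39 CPM per kb.

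Of the 42 regions, 22 had a peak in all 3 libraries, 7 only in the E12.5 and E16.5 libraries, 7 only at E16.5, 3 only at E12.5, 2 in the E14.5 and E16.5 libraries and 1 only at E14.5. Over the whole series 84660 of 266531 merged regions had a peak in all 3 libraries. The shares of the other patterns were not counted there, so these are given as a description. Mkx, the longest of these genes (chr18:6934518-7004780, minus strand), had 11, 8 and 13 peaks in stage order. Htra3 (chr5:35652023-35679782, minus strand) had 7, 5 and 8, and Thbs4 (chr13:92751590-92794818, minus strand) 8, 6 and 6. Tnmd (chrX:133850980-133865577, plus strand) had 3 at each stage, and Cilp (chr9:65265180-65280605, plus strand) and C1qtnf3 (chr15:10952332-10980150, plus strand) had 2, 2 and 3 each. Egr1 (chr18:34859823-34864984, plus strand) and Egr2 (chr10:67535475-67542188, plus strand) each lay under a broad region that covered the start and exons, beside which Egr2 had a small upstream peak at E16.5 (0.665 CPM). A call in 1 library and none in another also follows depth and called width, and is not a measured absence.

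**Figure D2:**
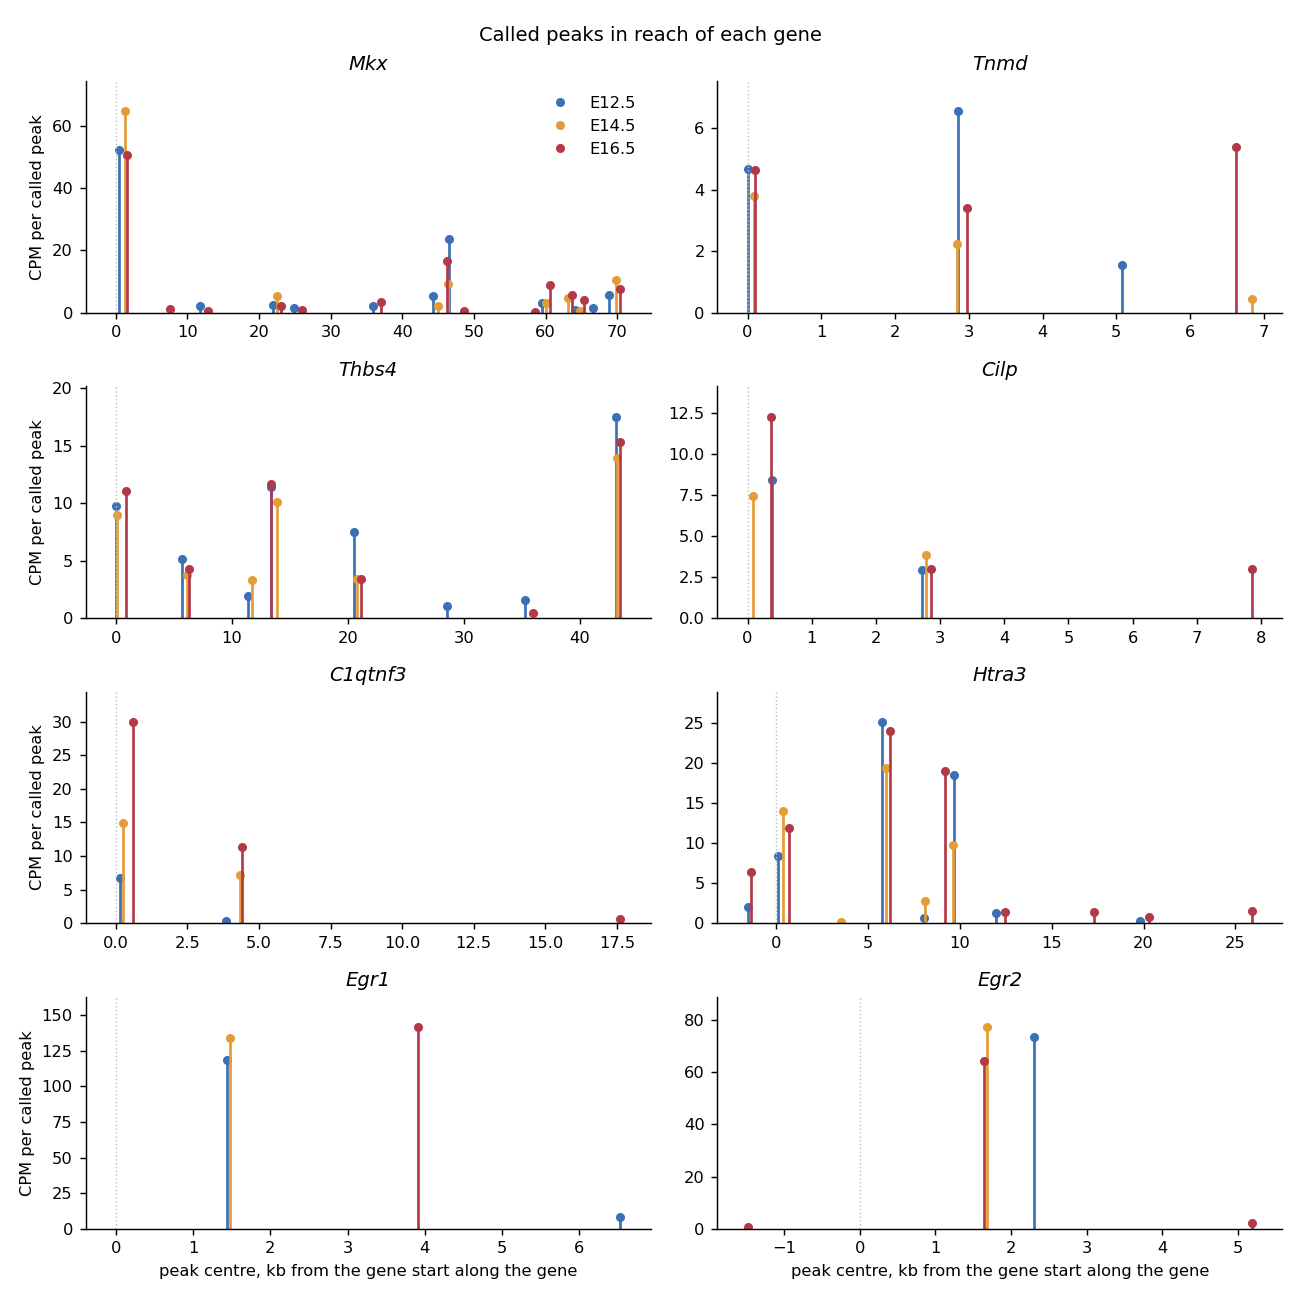
Called peaks of each gene by distance of the peak centre from the gene start (kb, positive downstream) in each library, with the CPM of each peak. The effector genes carry a start site peak in every library, and several intron peaks appear in some libraries only.

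Since called width differed between libraries, single peaks were compared where exactly 1 peak per library overlapped the others by at least 50% of each, which held for 10 regions in 6 of the 8 genes. Over matched peaks at start sites, 1.28% were 2-fold higher and 1.14% 2-fold lower over the first step, 0.559% and 1.97% over the second, and 1.67% and 4.06% from E12.5 to E16.5. Away from start sites the shares were 9.68% and 8.04%, 3.71% and 8.94%, and 11.4% and 15.7%. Of the 10 matched peaks, 2 were 2-fold higher and 1 was 2-fold lower from E12.5 to E14.5, 1 and 1 over the second step, and 1 and 1 over the whole interval. Peaks matched between only the compared stages were added after seeing the data. For these the shares at start sites were 2.01% and 1.33%, 0.792% and 2.46%, and 2.82% and 5.44%, and away from them 13.6% and 7.84%, 4.51% and 11%, and 10.8% and 16.4%. Over the whole interval 2 such member peaks were 2-fold higher (C1qtnf3 and Mkx) and 2 were 2-fold lower (Mkx and Thbs4). Below, percentages of matched or like peaks with a lower ratio were taken over peaks matched between the 2 compared stages.

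The C1qtnf3 start site peak gave the steepest series. It had 6.78 CPM (5.97 to 7.67) in the E12.5 library, against 14.9 CPM (14.1 to 15.7) at E14.5 and 29.9 CPM (29.1 to 30.8) by E16.5. The log2 ratio was 1.13 (0.94 to 1.33) for the first step, 1.01 (0.92 to 1.09) for the second and 2.14 (1.96 to 2.33) over both, and 99.8% of matched start site peaks had a lower ratio over both. The called peak widened from 1577 to 1664 and 2641 bp, and per kb the ratios were 1.06, 0.34 and 1.40 in the same order, so the second step was then below 2-fold. Its neighbour in the intron about 4 kb downstream was called over 145, 1028 and 1761 bp, with 0.338, 7.16 and 11.4 CPM, so both of these OCRs had more total signal at each later stage, although per kb the second step of the intron OCR was −0.11. Another, in the intron 17.5 kb downstream, was called at E16.5 alone, with 0.599 CPM. The E12.5 call at 4 kb covers a different and narrower stretch, which does not reach the bases below. The centre of that intron OCR at E14.5 and E16.5 is printed because nearly all of its signal was called only then, and it held no match to any of the 6 motifs.
C1qtnf3 intron (chr15:10956534-10956833, plus strand): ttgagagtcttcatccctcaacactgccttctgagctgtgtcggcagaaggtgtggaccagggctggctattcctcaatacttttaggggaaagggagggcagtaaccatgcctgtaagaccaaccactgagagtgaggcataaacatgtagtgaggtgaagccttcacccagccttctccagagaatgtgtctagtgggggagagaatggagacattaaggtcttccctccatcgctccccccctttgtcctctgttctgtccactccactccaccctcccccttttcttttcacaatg
Peaks of matched position away from start sites hold CAGATG in 30.7% and TATAAA in 17.5% of like windows of 300 bases.

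The start site peak of Htra3 also gained signal, and here the gain came over the first step. The peak had 8.46 CPM (7.55 to 9.44) in the E12.5 library, against 14.02 CPM (13.3 to 14.8) at E14.5 and 11.9 CPM (11.4 to 12.4) by E16.5. Over the first step the log2 ratio was 0.73 (0.55 to 0.91), above 94.5% of matched start site peaks, and over the second −0.24 (−0.34 to −0.14). Over both steps it was 0.49, or −0.01 per kb of called peak. The large intron peak 6.0 kb downstream ran the other way, with 25.1, 19.4 and 23.9 CPM, and it holds more counts than the start site. A further OCR upstream of the gene, 1.35 kb to 1.62 kb before the start, had 2.05 CPM over 532 bp in the E12.5 library. It had no call at E14.5 and 6.36 CPM over 1223 bp by E16.5, so these calls do not compare equal stretches.

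Between E12.5 and E16.5 Cilp gained at its start site and not in its intron. The start site peak had 8.40, 7.42 and 12.3 CPM in stage order, over calls of 1803, 970 and 2052 bp. Between E12.5 and E16.5, where the calls matched, the log2 ratio was 0.54 (0.37 to 0.72), above 91.9% of like peaks, or 0.36 per kb of called peak. The intron peak 2.8 kb downstream had 2.92, 3.83 and 2.96 CPM, with a ratio of 0.02 (−0.27 to 0.32). An exon peak 7.8 kb downstream was called at E16.5 alone, with 3.003 CPM.

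Tnmd showed the opposite arrangement, in which the start site peak was at a like level at E12.5 and E16.5 and an intron peak was lower. The start site peak had 4.67 CPM (4.01 to 5.42) in the E12.5 library, against 3.78 CPM (3.43 to 4.16) at E14.5 and 4.62 CPM (4.30 to 4.95) by E16.5, a log2 ratio of −0.02 (−0.25 to 0.23) over both steps. The intron peak 2.9 kb downstream had 6.54, 2.23 and 3.40 CPM. It matched in position between E12.5 and E16.5, with a log2 ratio of −0.94 (−1.16 to −0.72), and 17.8% of like peaks were lower still. A further intron peak 6.6 kb downstream had no call at E12.5, 0.454 CPM in a narrow call at E14.5 and 5.37 CPM by E16.5, where it was the largest OCR of the gene. The peak that lost signal is printed since the start site peak did not lose signal over the same interval beyond counting error. It held CATCTG, the reverse complement of CAGATG, at 2 places and TTTATA, the reverse complement of TATAAA, directly after the first.
Tnmd intron (chrX:133853667-133853966, plus strand): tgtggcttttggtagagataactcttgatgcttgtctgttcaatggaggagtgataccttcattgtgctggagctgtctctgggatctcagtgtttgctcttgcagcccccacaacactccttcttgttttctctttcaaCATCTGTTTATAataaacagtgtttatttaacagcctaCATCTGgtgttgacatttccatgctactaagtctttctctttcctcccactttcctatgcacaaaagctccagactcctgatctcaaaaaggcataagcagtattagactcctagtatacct
At least 2 matches of CAGATG on either strand were found in 5.71% of matched peaks away from start sites.

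In Thbs4, too, an intron peak lost signal. The start site peak had 9.78, 8.98 and 11.1 CPM in stage order, and its log2 ratio from E12.5 to E16.5 was 0.18 (0.02 to 0.35), or −0.09 per kb. The intron peak 20.8 kb downstream had 7.53 CPM (6.68 to 8.45) in the E12.5 library, against 3.44 CPM (3.105 to 3.805) at E14.5 and 3.41 CPM (3.14 to 3.69) by E16.5. The log2 ratio was −1.13 (−1.35 to −0.90) for the first step and −0.02 (−0.20 to 0.17) for the second, and 13.1% of matched peaks away from start sites had a lower ratio over both. The called peak narrowed from 879 to 581 bp and then widened to 766 bp, and per kb the ratios were −0.53, −0.41 and −0.95 over the first step, the second and both. In total signal the fall lay in the first step, and per kb it was divided over both steps and passed 2-fold in neither. The other matched peaks of the gene, 6.0 kb and 43.2 kb downstream, changed by −0.26 and −0.20 over both steps. The intron peak that fell is printed, and it held 1 CATCTG.
Thbs4 intron (chr13:92773870-92774169, minus strand): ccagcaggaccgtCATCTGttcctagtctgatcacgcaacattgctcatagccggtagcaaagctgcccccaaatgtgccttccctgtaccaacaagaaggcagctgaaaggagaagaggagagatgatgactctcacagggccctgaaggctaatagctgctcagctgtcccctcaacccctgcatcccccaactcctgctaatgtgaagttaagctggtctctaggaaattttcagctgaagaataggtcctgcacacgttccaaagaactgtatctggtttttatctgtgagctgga

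In Mkx the elements did not move together. The start site peak had 52.3, 64.6 and 50.5 CPM, a log2 ratio of 0.31, then −0.35. Of like peaks 56.6% had a lower ratio over the first step and 40.2% over the second, so both steps lay near the middle. The intron peak at chr18:6981942-6982702 had 2.63 CPM (2.16 to 3.19) in the E12.5 library, against 5.37 CPM (4.94 to 5.83) at E14.5 and 2.14 CPM (1.93 to 2.36) by E16.5. It was highest in the middle library, with log2 ratios of 1.03 (0.73 to 1.34) and then −1.33 (−1.52 to −1.14). Per kb of called peak these ratios were 0.99, which is under 2-fold, and −1.19. The intron peak about 60 kb downstream had 3.24, 3.30 and 9.03 CPM. Between E12.5 and E16.5, where it matched in position, its ratio was 1.48 (1.21 to 1.75), above 95.8% of like peaks, or 0.87 per kb of called peak. An exon peak 12.3 kb downstream had 2.20 CPM in the E12.5 library, no call at E14.5 and 0.716 CPM by E16.5, a ratio of −1.62 (−2.01 to −1.22). That call narrowed from 677 to 341 bp, and per kb the ratio was −0.63, which is under 2-fold. The E14.5 library had the highest promoter share, and its part in the E14.5 values of start site and intron peaks was not tested.

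For Egr1, no peak was matched in all libraries. The promoter peak had 118 CPM at E12.5, beside a peak of 8.16 CPM at the end of the gene, and the single later calls, of 4418 and 9611 bp, had 134 and 142 CPM. For Egr2 the promoter peak had 73.5 CPM, 77.3 CPM and 64.3 CPM, and at E16.5 a separate call of 2.14 CPM covered an exon.

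**Figure D3:**
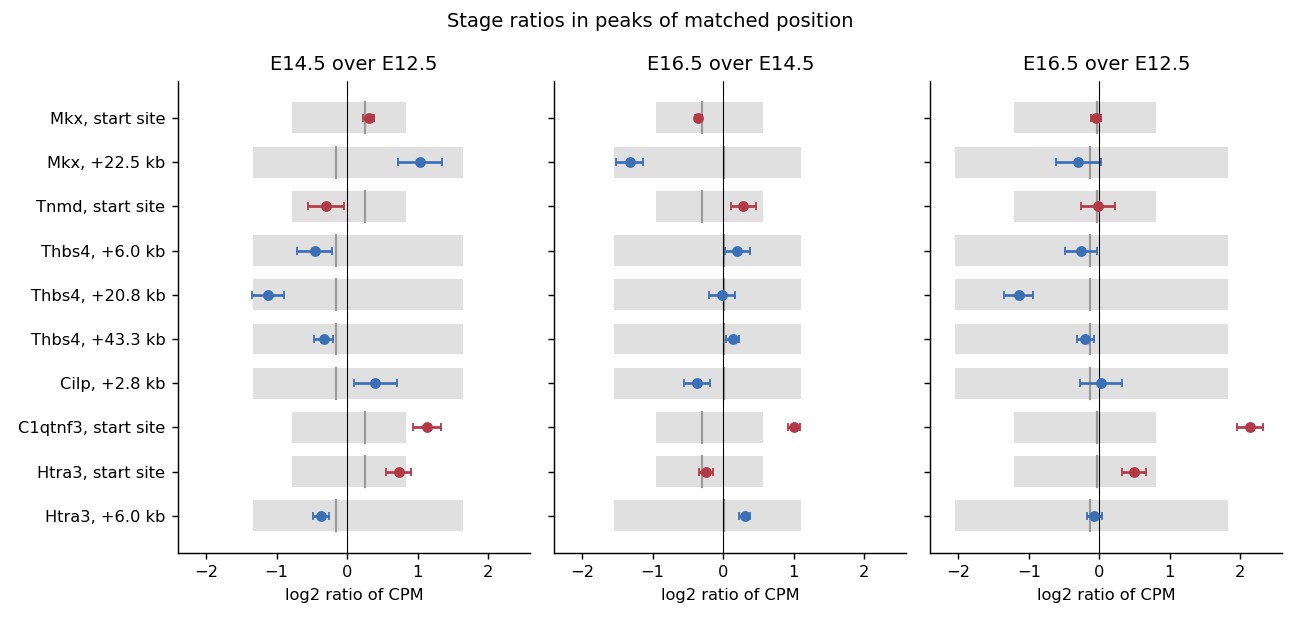
Log2 ratios between stages of the member peaks of matched position, with 95% counting intervals, at start sites and away from them, beside the central range of all matched peaks of the same class. The C1qtnf3 start site peak (2.14 from E12.5 to E16.5) stands above the range, and the Thbs4 intron peak (−1.14) lies inside it.

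The genes that share pathways with the 8 were read from 3 lists. From E12.5 to E16.5, 2.87% of all autosomal genes were 2-fold higher and 3.08% 2-fold lower, with a median of 0.01. Of 16 tendon factors and signals, 0 were 2-fold higher and 2 were 2-fold lower from E12.5 to E16.5, with a median of −0.20. The lower ones were Scx (−3.07), the gene of Scleraxis, and Eya1 (−1.14), a transcriptional co-activator. The single Scx peak was called over 10365 bp at E12.5 and over 2145 and 2611 bp later, so its ratio does not compare equal stretches. In matched peaks, which 14 of the 16 had, the extremes were Eya1 (−1.53) and Fgf18 (1.87), a growth factor. Of 23 tendon matrix genes, 4 were 2-fold higher and 0 were 2-fold lower, 20 lay above 0 and the median was 0.40. The 4 were Col3a1 (1.49), Col5a2 (1.38), Aspn (1.05) and Thbs2 (1.02), which were singled out after their values were seen. Of these only Col5a2 had matched peaks, where its ratio was 0.66, so none was shown 2-fold higher over equal stretches. In matched peaks, which 13 of the 23 matrix genes had, the extremes were Fmod (−0.20) and Col12a1 (1.29), and the median was 0.12. Of 18 immediate early genes, none passed 2-fold, 13 lay above 0 and the median was 0.31, beside 0.16 for Egr1 and −0.15 for Egr2. The 4 with matched peaks ran from Egr3 (−0.24) to Dusp1 (0.31).

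The share of nuclei in which each locus was open was compared at equal depth, by thinning every nucleus to 1096 fragments, which kept 6223, 20023 and 13796 nuclei and left out 2071, 0 and 252. A locus was open in a nucleus with at least 1 fragment in its shared peaks, and shares carry 95% exact binomial intervals for counting error. Egr1 came first at every stage, in 11.97%, 12.7% and 14.3% of nuclei, followed by Mkx in 8.90%, 9.71% and 8.79% and Egr2 in 6.70%, 7.16% and 6.89%. Htra3 was open in 5.70%, 4.82% and 5.56%, and Thbs4 in 5.54%, 4.89% and 4.56%. Cilp was open in 1.33%, 1.37% and 1.57%, and Tnmd in 0.948%, 0.704% and 0.877%. C1qtnf3 moved from 0.900% (0.680 to 1.17) to 2.48% (2.27 to 2.70) and then 4.54% (4.196 to 4.898), from the last place at E12.5 to a level with Thbs4 at E16.5. The unthinned shares of C1qtnf3 were 2.76%, 9.58% and 31.4%.

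In this order some neighbours could not be separated, since their intervals overlapped. These were Egr2 and Htra3, Htra3 and Thbs4, Cilp and Tnmd, and Tnmd and C1qtnf3 at E12.5, Thbs4 and Htra3 at E14.5, and Thbs4 and C1qtnf3 at E16.5. Shares depend on the total width of peaks in reach, so the order of genes is one of loci as called.

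Whether the loci opened in the same nuclei was asked of all 28 pairs, as the number of nuclei open at both over the number expected from the product of their shares. At the thinned depth this could not be resolved for the rare loci, where 0 to 71, 3 to 240 and 3 to 174 nuclei were open at both. Ratios of at least 1.5 were seen in 1, 2 and 1 of 28 pairs in stage order, beside 8.3%, 1.57% and 2.88% of all pairs of genes open in a like share of nuclei. The highest pair was a different one at each stage: Tnmd with Thbs4 at E12.5 (1.83, interval 0.673 to 3.99), Cilp with Htra3 at E14.5 (1.59) and Tnmd with Cilp at E16.5 (1.58, interval 0.327 to 4.63), the last on 3 nuclei. A second seed gave 4 pairs at E16.5.

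With all fragments kept, and the expected number summed within 10 groups of nuclei by depth, many more nuclei entered each pair. In all shared peaks Tnmd and Cilp were then the pair furthest above expectation at each stage: 37 nuclei were open at both where 27.4 were expected, then 70 where 46.5 were, then 334 where 249 were. The ratios were 1.35 (0.952 to 1.86), 1.51 (1.17 to 1.90) and 1.34 (1.201 to 1.493). At E12.5 the interval included 1. The background was pairs of autosomal genes open in 2.8% to 30%, 3.3% to 42% and 8.6% to 68% of nuclei in stage order. Of these pairs 0.0172%, 0.00156% and 0.000981% reached 1.5. Tnmd was open in 4.32%, 3.25% and 8.65% of nuclei, and Cilp in 4.36%, 5.52% and 14.9%. The largest possible ratio falls as a locus opens in more nuclei, and pairs as rare as this one were not set apart. The upper 2.5% of Tnmd's own pairs, with genes in the same range, began at 1.29, 1.203 and 1.095. For Cilp's own pairs it began at 1.37, 1.17 and 1.103, so at E12.5 the pair lay inside the central range of Cilp. With nuclei also divided into 5 groups by promoter share the ratio was 1.28, 1.40 and 1.31, and without the deepest 5% of nuclei 1.16, 1.51 and 1.41. In peaks away from the start sites it was 1.18, 1.36 and 1.149, and in start site peaks 1.198, 1.69 and 1.52. Other pairs stood higher in some of these settings, with Thbs4 and C1qtnf3 at 1.81 at E12.5 and Cilp and C1qtnf3 at 1.28 at E16.5 away from start sites, and Cilp and Htra3 at 1.62 at E12.5 in start site peaks.

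The other effector pairs lay closer to 1. At E16.5 the ratio was 1.16 (1.09 to 1.23) for Cilp with C1qtnf3, 1.11 (1.027 to 1.201) for Tnmd with Thbs4, 1.099 (1.03 to 1.17) for Thbs4 with Cilp and 1.07 (1.03 to 1.12) for C1qtnf3 with Htra3. All 10 pairs of effectors exceeded 1 at E12.5 and E16.5 and 9 of 10 did at E14.5, with medians of 1.14, 1.07 and 1.06. Over the background pairs named above 86.0%, 66.5% and 68.1% exceeded 1, with medians of 1.04, 1.01 and 1.01, so a ratio above 1 was itself common. Without the deepest 5% of nuclei the effector pairs above 1 numbered 7, 7 and 10 of 10, with medians of 1.03, 1.05 and 1.07, and at E12.5 the lowest was Cilp with C1qtnf3 (0.593) and the highest Thbs4 with Cilp (1.31). Pairs of a regulator with an effector exceeded 1 in 8, 7 and 3 of 15 cases, with medians of 1.02, 0.999 and 0.997. These counts were 10, 8 and 7 with nuclei also divided by promoter share, and 6, 3 and 3 without the deepest 5%. The 3 pairs among Mkx, Egr1 and Egr2 had medians of 1.03, 1.01 and 1.001. At E16.5, 5923 nuclei were open at both Mkx and Egr1 where 5916 were expected.

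**Figure D4:**
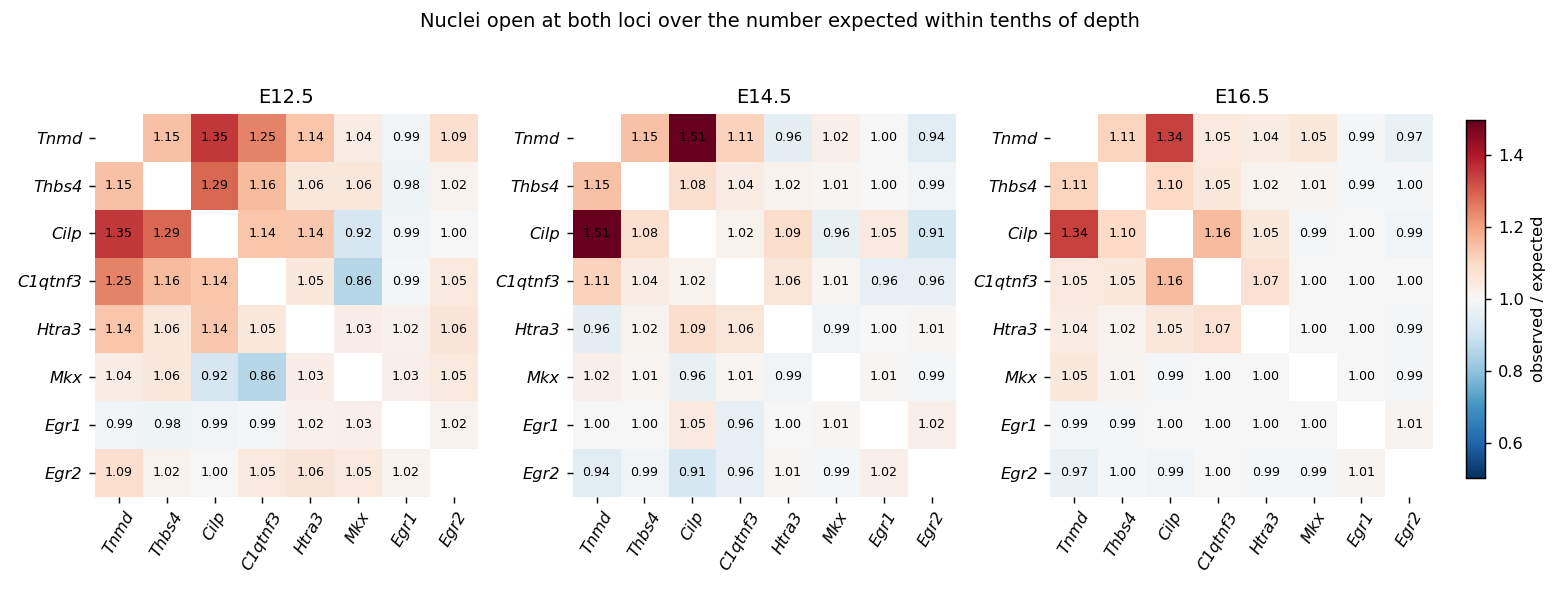
Co-opening ratio (nuclei open at both loci over the number expected within 10 groups by depth) of the 28 gene pairs at each stage. The median of effector pairs is above that of pairs that include Mkx, Egr1 or Egr2, although single pairs of both kinds overlap. The largest possible ratio falls as a locus opens in more nuclei, so these medians are not on a common scale. Tnmd with Cilp is the highest pair at each stage (1.35, 1.51 and 1.34).

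The genes whose opening most resembled each locus were ranked by correlation within 10 groups by depth over the 14048 nuclei of E16.5, among 15789 to 15823 genes. All correlations were small, up to 0.151, and the nuclei share a library, so they are given as descriptions. Tnmd was most like Atp6v1e2 (correlation 0.091, and 0.029 at E14.5), Naalad2 (0.086, and 0.046) and Ppbp (0.082, and 0.022). Thbs4 was most like Col22a1 (0.066, and 0.019 at E14.5), a collagen of the muscle and tendon junction, then Cyp2j13 and Bank1. Cilp was most like Cdh12 (0.110, and 0.029), Naalad2 and Ccdc85a. C1qtnf3 was most like Fmo6 (0.151, and 0.032), Tm4sf1 and Scg3, and Htra3 was most like Fam129a (0.074, and 0.031), Fam198a and Scg3. Mkx was most like Lrtm1 (0.082, and 0.027), Erg and Myo3b. Egr1 was most like Fosb (0.059, and 0.031), another immediate early gene, then Znfx1 and Ing1, and Egr2 was most like Tra2b (0.051, and 0.015), Lonp1 and Angel1. Over thinned nuclei, where Tnmd and Cilp were too rare to rank, other genes came first, at correlations from 0.031 to 0.039 at E16.5 and up to 0.017 at E14.5. These were Zfp354a, Lin7a and Med24 for Mkx, Ppcdc, Lrp3 and Fut4 for Thbs4, Hgf, Fhl2 and Fam129a for C1qtnf3, and Gga2, Psap and Tmem37 for Htra3. For Egr1 they were N4bp2, 0610009B22Rik and Ifngr1, and for Egr2 St3gal5, Anapc11 and Alyref.

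Within these rankings the members found each other unevenly. For Tnmd, Cilp ranked 1575 of 15321 genes in the E12.5 library, 39 of 15245 at E14.5 and 22 of 15823 by E16.5. For Cilp, C1qtnf3 ranked 61 and Tnmd 68 at E16.5. For Thbs4, Cilp ranked 41 and Tnmd 119, with C1qtnf3 between them, and for Htra3, C1qtnf3 ranked 10. For Mkx the nearest member was Tnmd, at rank 766, and for Egr1 it was Egr2, at rank 772.

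The tendon matrix genes lay high in the rankings of the effectors and of Mkx at E16.5, where 10% of all ranked genes fall in the top 10% by construction. Of 22 such genes, 13 were in the top 10% for Tnmd, 12 for Thbs4, 12 for C1qtnf3, 11 for Cilp, 10 for Htra3 and 10 for Mkx. For Egr1 the number was 0 and for Egr2 it was 3. Of the 16 tendon factors and signals, 9 were in the top 10% for Htra3, 8 for C1qtnf3, 6 for Thbs4, 5 for Cilp, 5 for Mkx, 4 for Tnmd, 1 for Egr2 and 0 for Egr1. The numbers of matrix genes were lower at E14.5, at 7 for Tnmd, 10 for C1qtnf3 and at most 6 for the others, and at E12.5 no gene had more than 4. Depth differs between stages, so these numbers cannot be set against each other as a change. Of 5 cartilage genes, 0 were in the top 10% for each effector and for Egr1 at E16.5, 3 were for Mkx and 1 was for Egr2. For Mkx the median place of the cartilage genes was 8.93%, against 12.2% for the matrix genes, so a high place there was not particular to tendon genes. Earlier, 2 were for Tnmd and 1 for C1qtnf3 at E12.5, and 1 each for Tnmd, Thbs4, Htra3 and Mkx at E14.5. For Tnmd at E16.5 the median ratio over the 22 matrix genes was 1.04. Singled out after their values were seen were Col22a1, the best ranked of them (417 nuclei open at both, 311 expected, ratio 1.34), and Kera. Kera encodes the matrix proteoglycan keratocan (210 nuclei, 151 expected, ratio 1.39). For Tnmd with Scx the ratio was 1.11 (0.98 to 1.24), and Scx ranked 819, while with the cartilage gene Sox9 it was 0.97 (0.90 to 1.04).

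**Figure D5:**
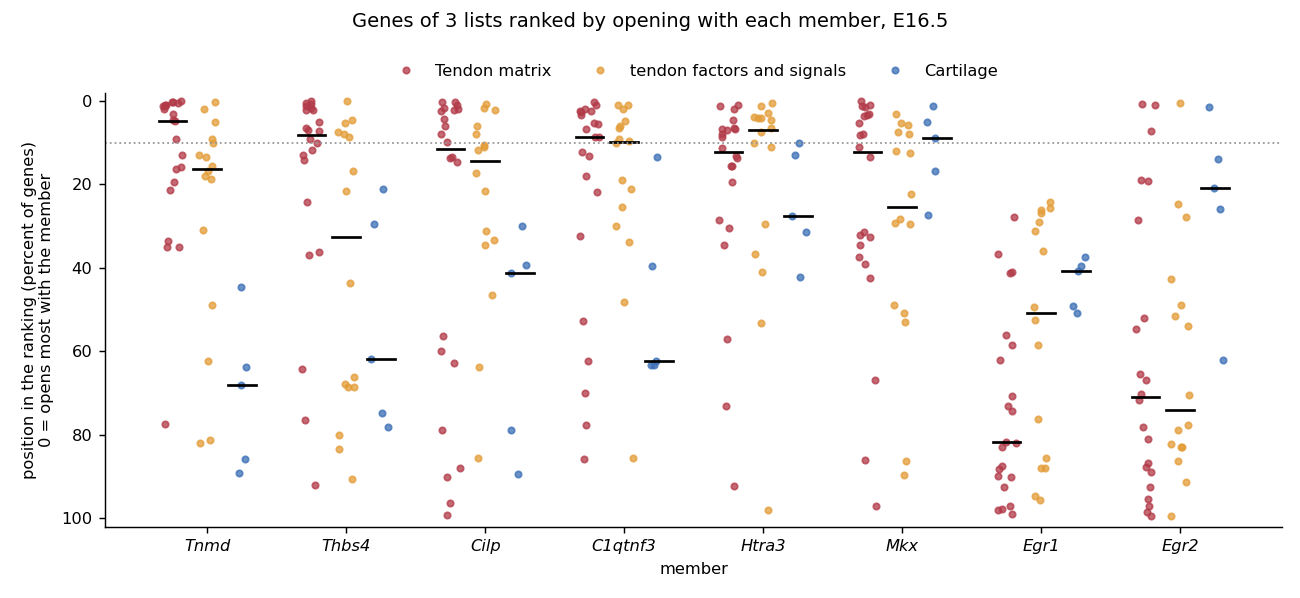
Place of list genes in each member's ranking at E16.5 (percent of ranked genes, 1 point per list gene). Tendon matrix genes gather at low percentages for Tnmd, Thbs4, C1qtnf3, Cilp, Htra3 and Mkx, with medians from 4.71% to 12.2%, and not for Egr1 (81.8%) or Egr2 (70.9%). For Mkx the cartilage genes lie lower still (median 8.93%).

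Within single loci, the start site and the other peaks of a gene were compared in the same way, again within 10 groups by depth. For C1qtnf3 the ratio was 1.78 (1.46 to 2.16) in the E14.5 library and 1.27 (1.18 to 1.37) by E16.5, while at E12.5 only 3 nuclei were open at both. For Cilp it was 2.72 (1.59 to 4.36), 1.498 and 1.33 at the 3 stages, the first on 17 nuclei. For Tnmd it was 2.38 (1.41 to 3.77) on 18 nuclei, then 1.77 and 1.30, with the later intervals including 1 (0.913 to 3.09 and 0.969 to 1.70). For Htra3 it was 1.44 (1.19 to 1.73), then 1.25, then 1.003 (0.936 to 1.075). Mkx had 1.155 (1.04 to 1.28), 1.08 and 1.04 (0.993 to 1.079), and Thbs4 had 1.19 (0.973 to 1.44), 1.01 (0.869 to 1.17) and 1.13 (1.05 to 1.21). Egr1 had such peaks at E12.5 (1.203, interval 1.02 to 1.41) and Egr2 at E16.5 (0.964, interval 0.839 to 1.101). Depth differed between libraries, and the Cilp start site was open in 3.23%, 3.66% and 12.2% of nuclei in stage order. That of Tnmd was open in 1.92%, 2.05% and 5.13%. The largest possible ratio falls as a peak opens in more nuclei, so the stages are not on a common scale. These ratios were not computed for other genes.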

How the data were processed

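Single-nucleus ATAC-seq was measured in 3 libraries of sorted forelimb MPs, 1 per stage. The authors deposited raw counts of cut sites for every called peak and nucleus, made with Cell Ranger ATAC (1.1.0 per the processing notes, on mm10). Software version 1.2.0 stands in the header of the E16.5 file and 1.0.1 in the others. Each library had its own peak calling, and called width differed between libraries. From 73.7% to 77.8% of entries equalled 2 cut sites, so sums were turned into fragment equivalents (counts over 2, rounded up) for intervals.

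Overlapping peaks were merged into regions (bedtools 2.31.1), of which 84660 of 266531 had a peak in every library and 44873 were of matched position (1 peak per library, reciprocal overlap of 50%). CPM used counts in autosomal shared regions. Start site peaks overlap 1000 bp before to 100 bp after a GENCODE start. With 1 library per stage no test was run, and 95% exact Poisson and Clopper-Pearson intervals cover counting error only. For shares, each nucleus was thinned to 1096 fragments, the 25th percentile at E12.5. All deposited nuclei were otherwise used, and no doublet caller was run. The ratio interval, the thinning and the co-opening ratio were tested on simulated fragments drawn at random. The simulated nuclei differed in depth but not in promoter share, so the effect of such variation was not tested. Python 3.11.15, numpy 2.4.6, scipy 1.17.1 and pandas 2.3.3 were used.

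The 8 genes, the lists (tendon factors and signals, tendon matrix, immediate early genes, and markers of mesenchyme, tendon, cartilage, Schwann cells, muscle, endothelium, blood and epithelium) and the alternatives were chosen with earlier results of these data known. The text names every member, the highest and lowest gene of each of the first 3 lists in matched peaks, and the 3 genes most like each member. Some other genes, among them Col22a1 and Kera for Tnmd, were named after their values were seen. That ranking was planned over thinned nuclei, where Tnmd and Cilp fell under the 2% limit and correlations stayed below 0.04, so the ranking over all fragments within 10 groups by depth, chosen after seeing the data, is given. Other settings chosen after seeing the data were peaks matched between only the compared stages, and co-opening over all fragments split also by promoter share, without the deepest nuclei, at start sites, or away from them. Alternatives covered scaling, called width, peak choice, binarised counts, depth, promoter share, overlap, thinning and seed.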

Additional observations from a re-analysis of the deposited data

How the results depend on the processing

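Counts here are of members past 2-fold or of pairs past 1.5 times, and where a setting moved one the cause was not tested unless its construction shows it. For the summed loci, 70 of 78 counts stayed the same. From E12.5 to E14.5, 0 rose per kb of called width (1 as reported), and 1 fell with median scaling and in peaks away from start sites (0 as reported). From E14.5 to E16.5, 1 rose with median scaling, own peaks, matched peaks or start site peaks, and 1, Egr1, fell per kb (0 and 0 as reported). For matched peaks, 15 of 30 counts moved by more than 1.5 times. Requiring 80% overlap, which leaves fewer peaks, gave 1 higher and 0 lower, then 0 higher, then 0 higher and 0 lower. Scaling over matched peaks gave 1 higher over the first step. Per kb there were 1 higher and 0 lower over the first step, 0 higher over the second and 0 lower over both. Any overlap gave 3 higher (2 as reported, a move of 1.5 times) and 2 lower, then 3 higher, then 4 higher, and peaks matched between only E12.5 and E16.5 gave 2 higher and 2 lower.

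For shares, 28 of 30 counts stayed the same, with 0 in matched peaks for the first step and 1 with thinned cut sites for the second. For co-opening, 20 of 30 counts moved, between 0 and 3 pairs at E12.5, 0 and 2 at E14.5 and 0 and 4 at E16.5, with 0 pairs past 1.5 over all fragments in all shared peaks at E12.5 and E16.5 and 1 at E14.5. Of single values, 131 of 274 locus ratios, 33 of 60 peak ratios, 75 of 120 shares and 49 of 786 pair ratios moved by more than counting error. Shares rise by construction where more fragments per nucleus are kept, and fall where fewer peaks are used. The share of C1qtnf3 at E12.5 was 0.627% with a second seed, below the interval of the reported value (0.680 to 1.17). The shallow E12.5 library limits the rare loci Tnmd, Cilp and C1qtnf3. No paired analysis was possible because each stage has 1 library and the labels carry no shared replicate number.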
